A study of Mus musculus with 24 samples.

Results

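Divergent promoter pairs are regions of H3K4me3 in which 2 protein-coding genes start on opposite strands, so that a single domain of the mark serves both. Members were taken as regions on chromosomes 1 to 19 with a width from 1000 to under 4500 bp that overlap annotated transcription start sites (TSSs) of exactly 2 protein-coding genes, 1 on each strand, in GENCODE release M1 on mouse genome build mm9. Measured H3K4me3 counts were not used to choose them, although the list of regions itself came from H3K4me3 peaks. Of all 17993 regions, 1055 were pairs, which is 8.32% of the 12678 regions within these limits of width and chromosome. The 9835 regions of the same widths that hold TSSs of 1 protein-coding gene only are called single-gene promoters and serve as the reference. At the limits, 9 pairs were narrower than 1000 bp and 71 were 4500 bp or wider, and 14 regions within the limits held 3 or more protein-coding genes on both strands. All of these were left out.

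H3K4me3 was measured in the cerebral cortex of C57BL/6 mice of 2 lines that carry FLAG-tagged histone H2B at the Rosa26 locus. In Rosa H2B-FLAG mice (genotype Rosa CAG-H2B-FLAG, age not given in the sources used here), a Vasa-Cre had removed the stop cassette and the CAG promoter drove the tag in nearly all cells. In Camk2a H2B-FLAG mice (labelled Rosa26 CAG-floxed-pA-H2B-FLAG/ CaMKCreERT2), the tag depends on Cre in Camk2a-positive neurons. Males received tamoxifen at 8 weeks of age, at 1 mg per day over 5 days, and the cortex was taken 1 month later. Single ChIP-Seq precipitates chromatin with an H3K4me3 antibody alone, and tChIP-Seq (tandem ChIP-Seq) first isolates tagged chromatin with a FLAG antibody. Each line and assay has 3 libraries, from lysates of 2 animals each, and the 12 input and FLAG libraries of the series were not analysed here. Lines also differ in tamoxifen and in the history of Cre, which cannot be told apart from the cells that carry the tag.

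H3K4me3 is deposited around start sites by SET1 and MLL complexes and marks promoters that are active or poised. Closely spaced genes on opposite strands are common in mammalian genomes, their shared promoters are usually rich in CpG dinucleotides, and many belong to genes of general cell functions such as DNA repair and mitochondrial translation. A count over such a region cannot be assigned to either gene of the pair. In chromatin from a tissue, fewer cells carrying the mark and less mark per cell cannot be told apart.

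Total counts over all regions were 6316125 to 8644574 in Rosa H2B-FLAG single ChIP-Seq, 1457261 to 1828371 in Rosa H2B-FLAG tChIP-Seq, 4063200 to 4233144 in Camk2a H2B-FLAG single ChIP-Seq and 2709729 to 3049130 in Camk2a H2B-FLAG tChIP-Seq. As a check of the labelled tissue and lines, 10 of 11 regions of excitatory neuron genes were higher in Camk2a H2B-FLAG than in Rosa H2B-FLAG tChIP-Seq. Among other cell types, 8 of 10 inhibitory neuron and 8 of 10 oligodendrocyte regions were lower. So were 8 of 11 astrocyte and 9 of 10 endothelial regions. In contrast, 2 astrocyte, 1 oligodendrocyte and 1 endothelial region were higher. Over all regions, 17.0% were higher and 14.6% lower. No microglia marker of the 14 listed had a region that could be assigned to it.

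The stretches between the nearest start sites of several pairs are shown in full, or as the middle 300 bases where longer, because the results below turn on these pairs. They are plus-strand sequences of mm9, none of which overlaps an annotated exon. In tChIP-Seq, Ifit1's pair had the largest fall in Camk2a H2B-FLAG, Galntl6's pair the largest rise among the named head-to-head pairs, and the next 3 fell, whereas the last 2 are well-known pairs that were not called. Capitals mark the core of the interferon-stimulated response element (ISRE, a pair of TTTC boxes with any 2 bases between them), CCGGAAG (ETS family), GGGCGG (SP1) and CCAAT (NFY), on either strand.
2010002M12Rik/Ifit1, chr19:34715234-34715360: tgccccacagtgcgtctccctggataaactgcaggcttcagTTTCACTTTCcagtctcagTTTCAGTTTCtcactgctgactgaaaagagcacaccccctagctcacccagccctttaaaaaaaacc
Galntl6/BC030500, chr8:61390425-61390551: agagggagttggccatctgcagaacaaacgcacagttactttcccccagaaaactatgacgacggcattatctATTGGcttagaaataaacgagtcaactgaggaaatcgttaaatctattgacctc
Lsr/Fam187b, chr7:31758504-31758803: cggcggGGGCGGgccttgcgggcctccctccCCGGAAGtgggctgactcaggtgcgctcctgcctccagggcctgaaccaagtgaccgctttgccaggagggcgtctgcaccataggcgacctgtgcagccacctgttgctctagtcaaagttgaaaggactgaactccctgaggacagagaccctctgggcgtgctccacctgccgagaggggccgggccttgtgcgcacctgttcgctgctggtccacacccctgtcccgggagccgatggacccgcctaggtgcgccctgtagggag
Rom1/Eml3, chr19:9003866-9004165: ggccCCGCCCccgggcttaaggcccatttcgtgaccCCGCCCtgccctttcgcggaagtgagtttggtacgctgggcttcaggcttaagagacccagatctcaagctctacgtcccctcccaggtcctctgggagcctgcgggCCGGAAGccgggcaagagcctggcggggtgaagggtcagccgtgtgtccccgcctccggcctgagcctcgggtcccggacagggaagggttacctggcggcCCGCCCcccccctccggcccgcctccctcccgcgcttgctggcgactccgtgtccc
S100a1/S100a13, chr3:90318315-90318356: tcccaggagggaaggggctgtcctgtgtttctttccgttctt
Mcm4/Prkdc, chr16:15637577-15637876: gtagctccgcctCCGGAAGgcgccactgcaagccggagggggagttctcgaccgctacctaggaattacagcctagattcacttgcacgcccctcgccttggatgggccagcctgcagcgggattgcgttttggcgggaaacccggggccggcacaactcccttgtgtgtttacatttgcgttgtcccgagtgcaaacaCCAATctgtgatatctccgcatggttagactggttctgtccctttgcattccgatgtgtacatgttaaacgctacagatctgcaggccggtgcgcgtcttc
Mrps12/Sars2, chr7:29526840-29527009: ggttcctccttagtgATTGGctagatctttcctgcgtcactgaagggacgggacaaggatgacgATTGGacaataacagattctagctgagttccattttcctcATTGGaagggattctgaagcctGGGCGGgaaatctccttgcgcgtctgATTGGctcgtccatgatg

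The Ifit1 stretch holds 2 of the ISRE cores within 127 bases and a single CpG. Galntl6/BC030500 has a stretch of 42.5% G and C with 1 CCAAT. In contrast, the Rom1/Eml3 stretch has 71% G and C and 25 CpGs in 300 bases.

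Start sites of the pairs were close together. The median distance from the minus-strand TSS to the nearest plus-strand TSS was 74 bp, with quartiles of 10.5 and 158 bp and a range from -2360 to 1722 bp, where a negative value means that the genes overlap at their 5′ ends. Of the 1055 pairs, 818 were head to head and 237 overlapping, and 696 pairs (66.0%) were head to head within 300 bp. The regions were wider than those of single-gene promoters, with a median of 2454 against 2072 bp. They hold 1048 different gene pairs and 2089 different genes, and 24 also hold a TSS of a noncoding gene. Both genes were listed as protein-coding in RefSeq (GRCm38.p6, matched by symbol) for 894 pairs. This was so for 90.6% of the head-to-head pairs and for 64.6% of the overlapping pairs, so many overlapping pairs join a gene to a transcript whose coding status differs between annotations.

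**Figure D1:**
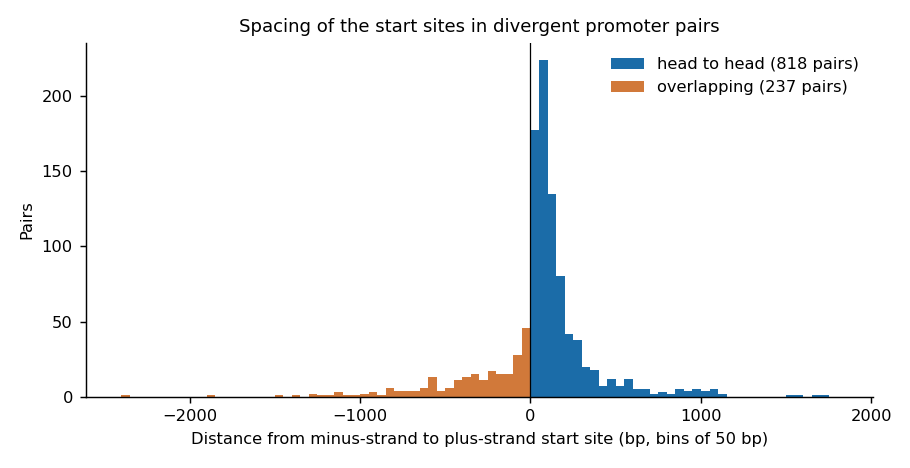
Histogram of the distance between the nearest start sites on opposite strands (x axis, bp, bins of 50 bp) against the number of pairs (y axis), with head-to-head pairs in blue and overlapping pairs in orange. Most of the 818 head-to-head pairs lie within 300 bp of 0, and the 237 overlapping pairs spread over a long tail to -2360 bp.

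Sequence around the start sites differed between pairs and single-gene promoters in some of 10 letter strings searched on both strands, none of which contains another although matches can overlap. Windows ran from 250 bases upstream to 50 bases downstream of each TSS, giving 2110 windows for the pairs and 9835 for single-gene promoters, and the 2 windows of a pair often share bases. CCGGAAG, a core of ETS family sites, was in 27.8% of the pair windows and in 15.8% of the single-gene windows. Within the pairs it was in 30.7% of head-to-head and 17.7% of overlapping windows. The YY1 string AAGATGGC was in 7.44% against 4.6%, the NRF1 string GCATGCGC in 5.83% against 4.82% and the ZNF143 string ACTACAAT in 1.04% against 0.742%. Of the other strings, GGGCGG was in 67.4% against 69.3%, CCAAT in 35.4% against 32.4%, the cyclic AMP response element TGACGTCA in 3.84% against 3.16%, the E-box CACGTG in 10.6% against 9.47%, TATAAA in 3.74% against 4.64% and the ISRE core in 2.51% against 2.69%. A ratio of observed to expected CpG over 0.6 was found in 86.6% of pair windows and 78.8% of single-gene windows. These shares are descriptions without a test, and a matching string is not a bound site.

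Per kb of region, pairs carried more H3K4me3 than single-gene promoters in every library. The median level of the pairs was 37.4 ± 0.302 CPM per kb (counts scaled to a total of 1000000, SD over 3 libraries) in Rosa H2B-FLAG single ChIP-Seq, against 30.8 ± 0.0577 for single-gene promoters, a ratio of 1.21. In Camk2a H2B-FLAG single ChIP-Seq the pairs had 36.5 ± 0.155 against 30.4 ± 0.0761 CPM per kb, a ratio of 1.2. The ratio was lower in tChIP-Seq, at 1.14 ± 0.00397 in Rosa H2B-FLAG and 1.11 ± 0.00697 in Camk2a H2B-FLAG, where the pairs had medians of 33.4 ± 0.0861 and 33.5 ± 0.181 CPM per kb. The ratios of the 3 libraries of each tChIP-Seq group did not overlap those of the single ChIP-Seq group of the same line. The ratio moved with width. Weighted over classes of 500 bp, it was 1.14 and 1.13 in single ChIP-Seq and 1.10 and 1.06 in tChIP-Seq, for Rosa H2B-FLAG and Camk2a H2B-FLAG. Within single width classes it ranged down to 0.99.

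**Figure D2:**
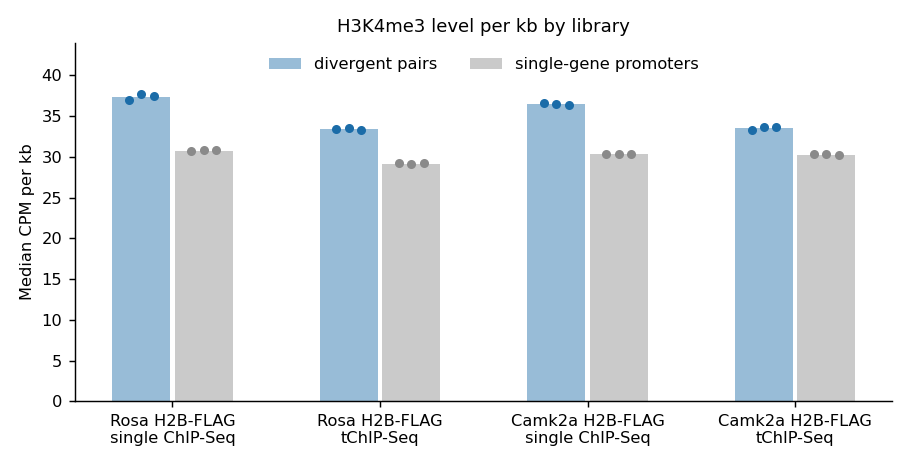
Median H3K4me3 level in CPM per kb (y axis, from 0) of divergent pairs (blue) and single-gene promoters (grey) in each of the 4 groups (x axis), where points are the 3 libraries and bars their means. Pairs lie above single-gene promoters in all 12 libraries, with medians of 33.4 to 37.4 against 29.2 to 30.8 CPM per kb.

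Head-to-head pairs had higher median levels than overlapping pairs by more than the SD in 3 of the 4 groups. In single ChIP-Seq they had 37.6 ± 0.274 against 36.6 ± 0.613 CPM per kb in Rosa H2B-FLAG and 36.7 ± 0.12 against 35.4 ± 0.0773 in Camk2a H2B-FLAG. In Rosa H2B-FLAG tChIP-Seq they were 33.7 ± 0.196 and 32.0 ± 0.31 CPM per kb, with no overlap of the libraries. In Camk2a H2B-FLAG tChIP-Seq they were 33.6 ± 0.227 and 33.5 ± 0.512 CPM per kb, which differ by less than the SD. Over the 818 head-to-head pairs, the distance between start sites had a Spearman's rho of -0.096 with the level per kb and of -0.001 with the size of the line effect in tChIP-Seq, as descriptions across regions that share libraries. The 3 pairs with the highest mean CPM were Ing2/AA386476, Uqcrh/Lrrc41 and Pdgfa/6330403L08Rik. In RefSeq, AA386476 is not protein-coding and 6330403L08Rik is not listed. Ing2, a reader of H3K4me3 itself, shares a region with 273 ± 3.86 CPM (68.6 CPM per kb) in Rosa H2B-FLAG single ChIP-Seq. Uqcrh, a subunit of respiratory complex III, shares a region with 238 ± 4.71 CPM there, and Pdgfa, a platelet-derived growth factor, shares a region with 229 ± 7.86 CPM.

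The comparison of Camk2a H2B-FLAG with Rosa H2B-FLAG in tChIP-Seq asks which H3K4me3 regions differ where chromatin comes from Camk2a-positive neurons rather than from nearly all cells. Fewer pairs than other regions differed. Of the 1055 pairs, 102 (9.67%) were higher and 104 (9.86%) lower at an adjusted p under 0.01, beside 17.0% higher and 14.6% lower of all 17993 regions. With library totals in place of TMM, which shifts the median of all regions by -0.07, the split was 65 higher and 153 lower. Called pairs made up 19.5%, against 31.6% of all regions and 33.2% of single-gene promoters. The pairs also moved less: their log2 fold changes had an SD of 0.342 against 0.612 in single-gene promoters, and 43.6% of pairs against 29.3% lay within 0.1 of 0. Only 10 pairs reached 1 and 17 reached -1 on the log2 scale. The share called was lower in pairs than in single-gene promoters in each of 7 classes of width and in each of 4 bins of the mean level. No test was made of the difference between these classes of regions.

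**Figure D3:**
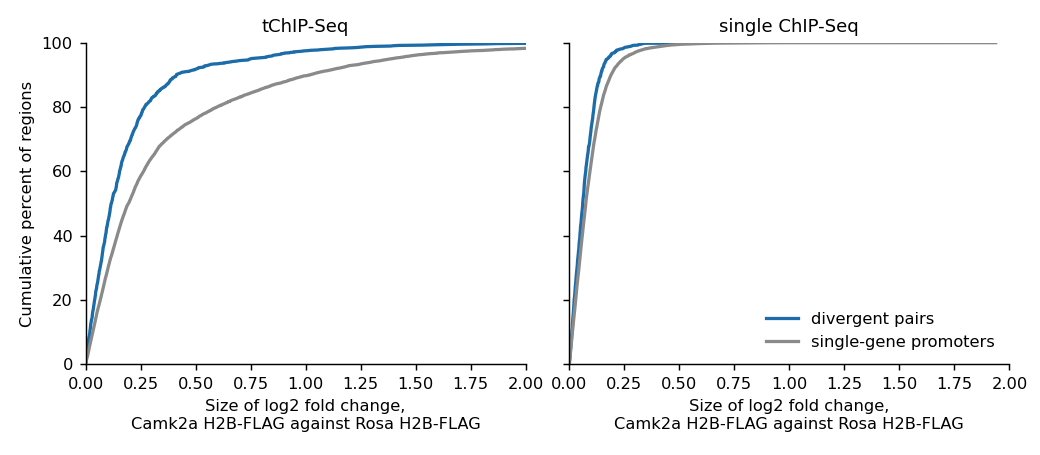
Cumulative percent of regions (y axis) against the size of the log2 fold change from Rosa H2B-FLAG to Camk2a H2B-FLAG (x axis, drawn to 2) in tChIP-Seq (left) and single ChIP-Seq (right), for divergent pairs (blue) and single-gene promoters (grey). The curve of the pairs rises faster in tChIP-Seq, where the SDs of the log2 fold changes were 0.342 and 0.612, while both curves rise steeply in single ChIP-Seq.

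The share called differed with the spacing of the start sites, which was not tested. Among head-to-head pairs 51 were higher and 77 lower, or 15.6% called, whereas among overlapping pairs 51 were higher and 27 lower, or 32.9% called, a share near the 31.6% of all regions and the 33.2% of single-gene promoters. When only pairs with both genes protein-coding in RefSeq were taken, 14.3% of 741 head-to-head and 26.8% of 153 overlapping pairs were called. For pairs with a gene of another RefSeq status, these shares were 28.6% of 77 and 44% of 84. Of pairs overlapping by more than 200 and up to 500 bp, 28.8% were higher and 6.85% lower, the most one-sided of the 8 classes of spacing.

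**Figure D4:**
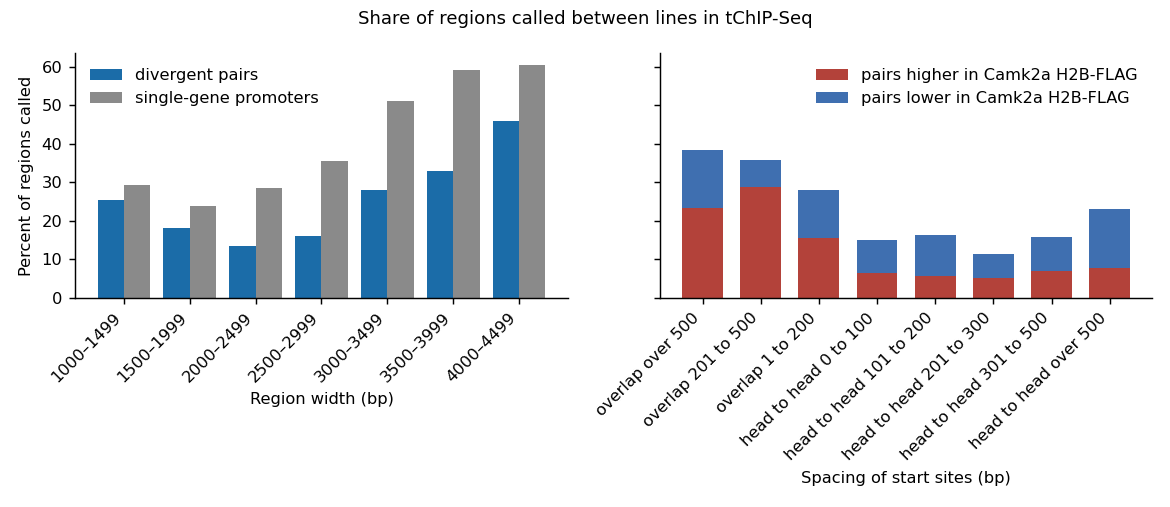
Percent of regions called between lines in tChIP-Seq at an adjusted p under 0.01 (y axis), on the left by region width (x axis, bp) for divergent pairs (blue) and single-gene promoters (grey), on the right by spacing of the start sites (x axis, bp) with pairs higher (red) and lower (blue) in Camk2a H2B-FLAG stacked. Pairs lie below single-gene promoters in all 7 width classes, and overlapping pairs were called more often than head-to-head pairs, at 32.9% against 15.6% in all.

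Called pairs also differed in sequence from the rest, which was not tested. Each pair gives 2 windows. CCGGAAG was in 30.8% of the windows of pairs that were not called, in 22.1% of those of lower pairs and in 8.33% of those of higher pairs. The ratio of observed to expected CpG had a median of 0.86 in pairs not called, 0.829 in lower pairs and 0.773 in higher pairs. Single-gene promoters had the same order of CCGGAAG shares, with 20.2%, 9.65% and 4.51%. Calls of pairs also went with spacing: 51 of the 102 higher and 27 of the 104 lower pairs were overlapping, beside 237 of all 1055. CCGGAAG was in 17.7% of overlapping and 30.7% of head-to-head windows. The shares by call were not split by spacing.

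The 6 pairs with the largest rise in Camk2a H2B-FLAG tChIP-Seq were Gm9954/3110047P20Rik, Fam43b/AB041806, Galntl6/BC030500, Slc15a4/Glt1d1, Ccr10/Cntnap1 and C530025M09Rik/Tmem90b, and 4 of them overlap at their 5′ ends. Gm9954/3110047P20Rik (chr5:64039879-64043915, overlap of 813 bp) had 167, 143 and 147 CPM in the 3 Camk2a H2B-FLAG and 57.9, 57.9 and 55.8 CPM in the 3 Rosa H2B-FLAG libraries after tChIP-Seq. It rose by 1.42 ± 0.0873 on the log2 scale (SE, edgeR adjusted p = 8.42e-25), or 2.68-fold. Single ChIP-Seq gave 117, 109 and 117 against 109, 106 and 107 CPM (log2 fold change 0.10, edgeR adjusted p = 0.249).

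Fam43b/AB041806 (chr4:137949312-137952939) overlaps by 1260 bp. Its tChIP-Seq libraries had 189, 205 and 186 CPM in Camk2a H2B-FLAG against 75.7, 85.3 and 72.2 CPM, a rise of 1.32 ± 0.0761 (edgeR adjusted p = 2.69e-26). AB041806 is not listed in RefSeq, and neither are Gm9954 and C530025M09Rik of the other pairs with the largest rise.

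Galntl6, which belongs to a family of enzymes that start O-linked glycosylation, is head to head with BC030500 at 128 bp (chr8:61389329-61392631). The pair had 81.7, 77.9 and 84.0 CPM in Camk2a H2B-FLAG and 31.3, 32.2 and 39.4 CPM in tChIP-Seq of Rosa H2B-FLAG. It rose by 1.26 ± 0.113 (edgeR adjusted p = 2.18e-16), while the single ChIP-Seq libraries of both lines lay between 52.0 and 57.8 CPM. Its stretch between the start sites is the one with 42.5% G and C shown above.

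Slc15a4, a lysosomal transporter of histidine and peptides, and Glt1d1 overlap by 618 bp (chr5:128112088-128113735). Their region had 75.1, 71.1 and 69.6 CPM in Camk2a H2B-FLAG and 33.4, 35.2 and 28.2 CPM in tChIP-Seq of Rosa H2B-FLAG, a rise of 1.16 ± 0.118 (edgeR adjusted p = 4.53e-14). Ccr10, a chemokine receptor, and Cntnap1, an axonal protein of paranodal junctions, start 598 bp apart (chr11:101036626-101040317). With 111, 100 and 95.4 against 49.6, 50.1 and 40 CPM, the pair rose by 1.13 ± 0.101 (edgeR adjusted p = 1.34e-16). C530025M09Rik/Tmem90b (chr2:149655496-149658872), whose Tmem90b encodes a synapse differentiation protein, had 134, 149 and 140 against 65.7, 66.2 and 61.7 CPM and rose by 1.13 ± 0.0845 (edgeR adjusted p = 3.17e-20). These 6 pairs were chosen under the condition that the tChIP-Seq groups do not overlap, which held for 35.1% of all pairs and 48.4% of all regions. In each of them the Rosa H2B-FLAG tChIP-Seq libraries lay below those of single ChIP-Seq.

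The 6 pairs with the largest fall were 2010002M12Rik/Ifit1, Abi3/Gngt2, Lsr/Fam187b, Gm10562/Mxra8, Rom1/Eml3 and S100a1/S100a13. Ifit1, an interferon-induced antiviral protein that binds foreign RNA, starts 128 bp from 2010002M12Rik (chr19:34714568-34717059), with the 2 ISRE cores between them. The pair had 47.0, 37.0 and 35.4 CPM in tChIP-Seq of Rosa H2B-FLAG and only 4.59, 3.61 and 6.26 CPM in that of Camk2a H2B-FLAG. It fell by 3.04 ± 0.21 on the log2 scale (edgeR adjusted p = 4.45e-22), or 8.25-fold. It was also lower in Camk2a H2B-FLAG single ChIP-Seq, with 12.8, 16.9 and 16.4 against 22.7, 23.9 and 21.9 CPM (log2 fold change -0.58 ± 0.123, edgeR adjusted p = 0.000935), a call that was lost without Camk2a H2B-FLAG replicate 1 (0.0345) or Rosa H2B-FLAG replicate 2 (0.0107).

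Abi3, an adaptor of actin regulation known from microglia, and Gngt2, a G protein gamma subunit, overlap by 100 bp (chr11:95702358-95703935). Their region fell to 3.61, 1.08 and 4.05 CPM in Camk2a H2B-FLAG tChIP-Seq from 11.0, 14.3 and 19.7 CPM in Rosa H2B-FLAG (log2 fold change -2.30 ± 0.317, edgeR adjusted p = 2.51e-09). The lowest of these values rests on 3 counts. Values in single ChIP-Seq overlapped, with 11.8, 9.78 and 13.0 against 10.6, 11.8 and 8.83 CPM.

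Lsr, a lipoprotein receptor of tricellular junctions, and Fam187b start 340 bp apart (chr7:31756609-31759048). The pair had 7.22, 6.86 and 8.47 CPM in Camk2a H2B-FLAG against 36.0, 28.6 and 26.9 CPM in tChIP-Seq of Rosa H2B-FLAG and fell by 2.03 ± 0.201 (edgeR adjusted p = 1.65e-14). In single ChIP-Seq the lines differed by -0.02 on the log2 scale (adjusted p = 0.942).

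Gm10562/Mxra8 (chr4:155213923-155215469), in which Mxra8 encodes a cell adhesion protein that also serves as an alphavirus receptor, had 7.87, 7.58 and 8.10 against 27.7, 27.4 and 32.1 CPM in tChIP-Seq (log2 fold change -1.87 ± 0.2, edgeR adjusted p = 3.39e-13). Rom1, a membrane protein of photoreceptor outer segments, and Eml3, which binds microtubules, start 338 bp apart (chr19:9003403-9005203). This pair had 19.0, 13.7 and 17.3 against 56.9, 55.5 and 66.3 CPM and fell by 1.81 ± 0.143 (edgeR adjusted p = 4.22e-19). S100a1 and S100a13, which encode calcium-binding proteins of the same family, start 43 bp apart (chr3:90317159-90319995). Their region had 24.3, 18.0 and 20.6 against 68.9, 63.8 and 74.8 CPM and fell by 1.70 ± 0.129 (edgeR adjusted p = 7.27e-20). The 6 lower pairs were chosen under the same condition on the tChIP-Seq groups. Except for Ifit1's pair, none of them was called between lines in single ChIP-Seq. In Rosa H2B-FLAG, tChIP-Seq was called above single ChIP-Seq in the pairs of Ifit1 (log2 fold change 0.82), Mxra8 (1.23), Rom1 (0.68) and S100a1 (0.87). The pairs of Abi3 (0.48) and Lsr (0.30) were not called there. In Camk2a H2B-FLAG, Gm10562/Mxra8 was not called between assays (-0.33, edgeR adjusted p = 0.199), while the others were lower in tChIP-Seq. Gm10562 is not listed in RefSeq.

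**Figure D5:**
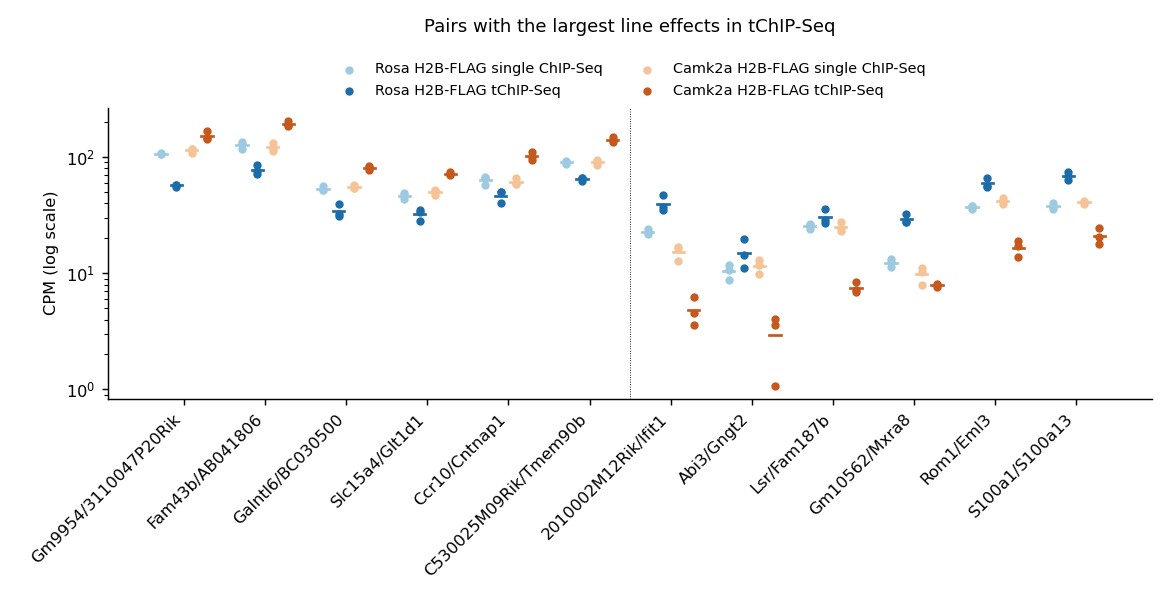
H3K4me3 in CPM (y axis, log scale) of the 6 pairs with the largest rise and the 6 with the largest fall between lines in tChIP-Seq (x axis, divided by the dotted line), with the 3 libraries of each group as points and their means as short lines. In the pairs on the left the Camk2a H2B-FLAG tChIP-Seq libraries are the highest of all 4 groups, and on the right they are the lowest except in Gm10562/Mxra8, where 1 Camk2a H2B-FLAG single ChIP-Seq library lies within their range. The pair 2010002M12Rik/Ifit1 lies at 3.61 to 6.26 CPM.

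In single ChIP-Seq of the same lines, 1 pair was higher and 16 were lower, or 1.61% of the pairs, beside 2.15% of all regions (0.928% higher and 1.22% lower). Counts were 2 and 5 with library totals and 1 and 3 without the 40% of regions with the lowest counts. The DESeq2 Wald test called 0 pairs in this comparison and 11 of the 9835 single-gene promoters. Gpc2/Stag3, which joins a heparan sulfate proteoglycan gene to a meiotic cohesin gene, was the higher pair, with 12.8, 12.2 and 13.0 CPM in Camk2a H2B-FLAG and 8.26, 8.02 and 8.18 CPM in Rosa H2B-FLAG (log2 fold change 0.63 ± 0.163, edgeR adjusted p = 0.00801). Without any 1 of the 6 libraries its call was lost, with adjusted p from 0.018 to 0.035. Among called pairs, the largest falls after 2010002M12Rik/Ifit1 were in 6030458C11Rik/Drosha, with Drosha the nuclease that cleaves primary microRNAs, and in Clmn/4930408O17Rik. Drosha's pair had 82.5, 90.9 and 87.0 against 108, 101 and 105 CPM and fell by 0.27 ± 0.0547 (edgeR adjusted p = 0.000521), which was lost without Camk2a H2B-FLAG replicate 1 (0.0169). Clmn's pair (-0.25 ± 0.0667, edgeR adjusted p = 0.0099) lost its call without any 1 of the 6 libraries. Without a single library, 6 to 12 pairs were lower. Of the 17 pairs called in single ChIP-Seq, 6 were also called in tChIP-Seq, where 19.5% of all pairs and 31.6% of all regions were called. The same overlap was not counted over all regions.

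The assays were compared within each line. Where the tag depends on Cre in Camk2a-positive neurons, the FLAG antibody also selects chromatin by cell type. Effects of the FLAG step and of this selection were therefore not separated in Camk2a H2B-FLAG. In Rosa H2B-FLAG, where nearly all cells carry the tag, tChIP-Seq gave 85 pairs (8.06%) higher and 341 (32.3%) lower than single ChIP-Seq. Over all regions 47.2% were called, 24.7% higher and 22.5% lower. Of single-gene promoters, 18.6% were higher and 28.2% lower. For Camk2a H2B-FLAG, 102 pairs (9.67%) were higher and 363 (34.4%) lower. There, 47.9% of all regions were called, 25.3% higher and 22.6% lower, and of single-gene promoters 20.7% were higher and 27.7% lower. The balance depends on the scaling. With library totals, which shift the median of all regions by 0.10 in Rosa H2B-FLAG, 131 pairs were higher and 170 lower, and without the 40% of regions with the lowest counts 137 were higher and 103 lower. For Camk2a H2B-FLAG these counts were 108 and 319, and 124 and 209. Against single-gene promoters in the same fit, the median log2 fold change of pairs differed by -0.04 in Rosa H2B-FLAG and -0.05 in Camk2a H2B-FLAG. Library totals gave the same differences. Without the 40% of regions with the lowest counts the difference was -0.01 in Rosa H2B-FLAG. It also changed with the mean level. In the highest of the 4 bins of the mean level, 46.5% of pairs and 58.4% of single-gene promoters were lower in Rosa H2B-FLAG, with medians of -0.176 and -0.231. In Camk2a H2B-FLAG these shares were 40.1% and 37.1%, with medians of -0.131 and -0.111.

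The largest rises between assays in Rosa H2B-FLAG were in Fam19a3/Ppm1j, Sun3/Gm11992 and Gm10562/Mxra8. Fam19a3/Ppm1j, which joins a secreted chemokine-like protein to a protein phosphatase, had 28.7, 29.2 and 36.1 CPM in tChIP-Seq against 9.13, 11.0 and 10.8 CPM (log2 fold change 1.60 ± 0.161, edgeR adjusted p = 1.6e-21). The largest falls were in Nap1l5/Herc3 (log2 fold change -0.92 ± 0.112), Gm9954/3110047P20Rik (-0.89 ± 0.0841) and Gm10762/Zc3h6 (-0.72 ± 0.0767). Nap1l5 is an imprinted gene, and its pair had 31.8, 31.0 and 35.4 CPM in tChIP-Seq against 64.5, 61.7 and 60.2 CPM in Rosa H2B-FLAG single ChIP-Seq (edgeR adjusted p = 5.74e-15).

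In Camk2a H2B-FLAG the largest rises were in 2610109H07Rik/Mad2l2, Atp8a2/4930563I02Rik and Smc1b/Ribc2. Mad2l2, a subunit of a DNA polymerase for translesion synthesis, shares a region with 39.7, 30.7 and 42 CPM in tChIP-Seq against 15.8, 14.1 and 17.7 CPM (log2 fold change 1.24 ± 0.134, edgeR adjusted p = 5.43e-16). The same pair rose in Rosa H2B-FLAG by 1.09 ± 0.147, and it did not pass the test between lines in tChIP-Seq (0.21, edgeR adjusted p = 0.254). The largest falls were in Abi3/Gngt2 (-1.96 ± 0.28), Rb1/Lpar6 (-1.81 ± 0.122) and Lsr/Fam187b (-1.73 ± 0.181). Comparisons of assays and of lines share libraries.

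The interaction of line and assay tests whether the line effect differs between tChIP-Seq and single ChIP-Seq. It was positive in 95 pairs (9.0%) and negative in 70 (6.64%), beside 13.7% and 13.2% of all regions. Of the pairs 15.6% were called, against 26.9% of all regions and 29.2% of single-gene promoters. With library totals the split was 55 positive and 123 negative, where the median of all regions shifted by -0.10, and without the 40% of regions with the lowest counts it was 57 and 89. The largest positive terms were in Fam43b/AB041806 (1.39 ± 0.0925, edgeR adjusted p = 1.9e-35), Gm9954/3110047P20Rik (1.32 ± 0.102) and Galntl6/BC030500 (1.2 ± 0.138). The largest negative terms were in 2010002M12Rik/Ifit1 (-2.48 ± 0.258, edgeR adjusted p = 1.05e-17), Abi3/Gngt2 (-2.43 ± 0.354) and Lsr/Fam187b (-2.02 ± 0.231).

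Of 14 bidirectional gene pairs listed as well known, 11 were members. In tChIP-Seq between lines 1 was higher, 1 lower and 9 were not called, where 19.5% of all pairs and 31.6% of all regions were called. The 3 that were not members were Atm/Npat, Brca1/Nbr1 and Fancd2/Brk1. Hspd1 and Hspe1, which encode the mitochondrial chaperonin and its partner, share a region (chr1:55143195-55146120) with 136, 133 and 134 CPM in Camk2a H2B-FLAG and 146, 131 and 106 CPM in tChIP-Seq of Rosa H2B-FLAG. The groups overlapped (log2 fold change 0.07 ± 0.0751, edgeR adjusted p = 0.51). Surf1, an assembly factor of cytochrome c oxidase, and Surf2 start 21 bp apart, and their region had 117, 113 and 120 against 120, 131 and 111 CPM (log2 fold change -0.05 ± 0.0751).

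Mcm4, a subunit of the replicative helicase, and Prkdc, the DNA-dependent protein kinase, had 74.1, 66.8 and 67.0 against 72.0, 74.6 and 70.9 CPM (log2 fold change -0.06 ± 0.0957, edgeR adjusted p = 0.689). Other log2 fold changes in this list were 0.14 ± 0.0884 for the purine synthesis genes Ppat/Paics, 0.01 ± 0.0683 for Ranbp1/Trmt2a, 0.14 ± 0.112 for Mrps12/Sars2 of mitochondrial translation and -0.09 ± 0.0722 for Cdk5/Slc4a2, in which Cdk5 is a kinase of neurons.

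Psmb9/Tap1 and Col4a1/Col4a2 were the called ones. Psmb9, a subunit of the immunoproteasome, and Tap1, which carries peptides for antigen presentation, overlap by 18 bp (chr17:34323503-34325613). Their region had 53.5, 41.9 and 48.3 CPM in Camk2a H2B-FLAG and 84.0, 84.7 and 87.3 CPM in tChIP-Seq of Rosa H2B-FLAG (log2 fold change -0.82 ± 0.101, edgeR adjusted p = 6.91e-11). Col4a1 and Col4a2, which encode basement membrane collagen, had 143, 145 and 150 against 121, 119 and 131 CPM (log2 fold change 0.25 ± 0.0705, edgeR adjusted p = 0.00238). This pair was the only endothelial marker region among the pairs, and all 6 single-gene promoters of endothelial markers were lower. Its call was lost with library totals (adjusted p = 0.0321), with the DESeq2 Wald test (0.0257) and without Camk2a H2B-FLAG replicate 3 or Rosa H2B-FLAG replicate 1 or 2 (0.0145 to 0.0211).

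Markers of other cell types were rare among the pairs: the lists for excitatory neurons, inhibitory neurons, oligodendrocytes, astrocytes and microglia had no pair at all. DNA repair and replication genes were in 32 pairs, of which none was higher and 2 were lower in tChIP-Seq between lines, where 19.5% of all pairs and 31.6% of all regions were called. The 32 pairs had a median log2 fold change of -0.08 beside -0.02 over all pairs. The libraries of both lower pairs did not overlap: Pxmp2/Pole, with the catalytic subunit of DNA polymerase epsilon, had 39.7, 45.1 and 46.4 against 60.5, 63.2 and 61.7 CPM (log2 fold change -0.50 ± 0.111, edgeR adjusted p = 0.000137). Mcm7/Ap4m1, with another helicase subunit, fell by 0.31 ± 0.0866 (edgeR adjusted p = 0.00229), which was lost without Rosa H2B-FLAG replicate 2 (0.0127). Fkbp3/Fancm, Acot13/Tdp2, Pppde2/Xrcc6, Rpa3/Gm16039, Recql/Golt1b and Wrn/Purg, those of this list with the highest levels, had log2 fold changes between -0.12 and 0.10 and were not called.

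Mitochondrial ribosome genes were in 26 pairs, of which Tmem63b/Mrpl14 was higher (0.24 ± 0.0691, edgeR adjusted p = 0.00325) and none lower. Oxidative phosphorylation genes were in 27 pairs, with 2 higher, such as Dos/Atp5d (0.35 ± 0.0843), and 1 lower, Uqcrq/Gdf9 (-0.43 ± 0.108). Cytosolic ribosome genes were in 13 pairs with Lrsam1/Rpl12 higher (0.43 ± 0.0944), aminoacyl-tRNA synthetases in 10 pairs with 2 lower, such as Ears2/Ubfd1 (-0.30 ± 0.0769), and proteasome genes in 9 pairs with Psmb9/Tap1 and Psma7/Ss18l1 (-0.19 ± 0.06) lower. Cilia genes were in 13 pairs, of which Ift80/Smc4, which joins intraflagellar transport to condensin, fell by 0.51 ± 0.0688. In these 7 lists together, 4 pairs were higher and 8 lower out of 130 entries. Of all pairs 9.67% and 9.86% were called so, and of all regions 17.0% and 14.6%. Single-gene promoters of these lists were also seldom called. As higher and lower, these were 1 and 5 of 51 for DNA repair, and 0 and 1 of 46 for the mitochondrial ribosome. Oxidative phosphorylation had 0 and 1 of 51, the cytosolic ribosome 0 and 2 of 62 and aminoacyl-tRNA synthetases 1 and 3 of 25. The proteasome had 0 and 3 of 37 and cilia genes 1 and 1 of 38. The called pairs named from these lists were chosen after their values were seen. Several calls rested on single libraries: the adjusted p of Tmem63b/Mrpl14 was 0.0754 without Camk2a H2B-FLAG replicate 2, 0.0215 without Rosa H2B-FLAG replicate 1 and 0.0305 without Rosa H2B-FLAG replicate 3, that of Ears2/Ubfd1 was 0.0305 without Rosa H2B-FLAG replicate 1, and Psma7/Ss18l1 was lost without any 1 library (0.0117 to 0.0281).

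Zinc finger genes were in 22 pairs, of which Zfp575/Ethe1 was higher (0.74 ± 0.169) and Zfp597/Nat15 lower (-0.54 ± 0.126). Over all pairs 9.67% were higher and 9.86% lower, and over all regions 17.0% and 14.6%. Of the clustered histone genes, Hist1h2bh/Hist1h3f was the only pair, with 10.5, 8.66 and 8.47 CPM in Camk2a H2B-FLAG against 23.5, 22.1 and 19.7 CPM in tChIP-Seq of Rosa H2B-FLAG (log2 fold change -1.23 ± 0.208, edgeR adjusted p = 6.04e-07). Reads of histone genes may map to near-identical copies, so this value is uncertain.

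Synaptic genes were in 2 pairs, of which 1 was higher and Cdk5/Slc4a2 was not called. In contrast, 61 of the 71 regions of this list were higher in Camk2a H2B-FLAG tChIP-Seq. Over all pairs 9.67% were higher, and over all regions 17.0%.

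Some genes of the pairs have a second region elsewhere, which was compared with the shared one. There were 142 pairs with 156 such regions, each holding protein-coding TSSs of only that gene. For higher pairs, 4 second regions were higher, 17 not called and 4 lower, and for lower pairs 5 were lower, 12 not called and 1 higher. Among all 156 second regions 16 were higher and 25 lower, beside 17.0% and 14.6% of all regions.

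Dnm1, which encodes the dynamin of synaptic vesicle recycling, overlaps Ciz1 by 920 bp in a region (chr2:32205368-32209286) that had 119, 130 and 127 CPM in Camk2a H2B-FLAG and 62.6, 59.6 and 71.5 CPM in tChIP-Seq of Rosa H2B-FLAG. This region rose by 0.97 ± 0.0871 (edgeR adjusted p = 2.36e-16), while a second Dnm1 region 37048 bp away changed by -1.36 ± 0.2 (edgeR adjusted p = 1.59e-08) and a second Ciz1 region by -0.05 ± 0.105. 6330409D20Rik/Sh2d3c, with the adaptor gene Sh2d3c, rose by 0.98 ± 0.0867 with 118, 127 and 127 against 63.1, 62.0 and 63.6 CPM. A second Sh2d3c region, 11359 bp away, changed by -2.22 ± 0.208 (edgeR adjusted p = 1.3e-15). The other second regions that moved against their pair were those of Dst (-1.67 ± 0.249, pair Bend6/Dst 0.67), Arvcf (-0.87 ± 0.138, pair D16H22S680E/Arvcf 0.57) and Lmo7 (1.48 ± 0.106, pair Gm9922/Lmo7 -0.54). In tChIP-Seq these second regions had means of 5.5, 25.1 and 102 CPM in Camk2a H2B-FLAG and 17.6, 45.7 and 37.0 CPM in Rosa H2B-FLAG, in that order. These 3 were chosen after their values were seen.

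Among lower pairs with a second region, Rb1/Lpar6 had the largest fall. Lpar6, a receptor for lysophosphatidic acid, lies within the retinoblastoma gene Rb1, and the shared region (chr14:73637118-73640286) holds annotated TSSs of both genes that cross by 1895 bp. It had 15.1, 16.2 and 17.3 CPM in Camk2a H2B-FLAG against 45.9, 44.7 and 51.2 CPM in tChIP-Seq of Rosa H2B-FLAG and fell by 1.53 ± 0.15 (edgeR adjusted p = 8.57e-15). The other Rb1 region, 83900 bp away, differed by -0.10 ± 0.0734 (edgeR adjusted p = 0.318). Irak3/Tmbim4, with Irak3 a brake on Toll-like receptor signalling, fell by 1.4 ± 0.216, and a second Tmbim4 region differed by -0.24 ± 0.135 (edgeR adjusted p = 0.16). Trp53i13/Abhd15 fell by 1.39 ± 0.164 and a second Trp53i13 region 419 bp away fell by 0.79 ± 0.14. Kdm2b/Orai1, which joins a histone demethylase gene to a calcium channel gene, fell by 0.93 ± 0.116, and of 3 second Kdm2b regions 1 fell by 0.31 ± 0.0857 and 2 were not called, at 0.22 and -0.02. Slc15a4/Glt1d1 rose while a second Slc15a4 region differed by -0.11 ± 0.0733 (edgeR adjusted p = 0.259).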

How the data were processed

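H3K4me3 libraries of mouse cerebral cortex were analysed from the whole-number read counts per region that the authors deposited, without normalization, on a single list of 17993 regions. Per the study's methods, reads from repeats were removed, the rest were mapped to mm9 with Bowtie, duplicates were removed, peaks were called with MACS and reads were counted with bedtools. The submitters' processing notes list Bowtie 1.0.0, Bowtie2 2.1.0, SAMtools 0.1.19 and bedtools 2.17.0. How peaks of separate calls were merged is not given in the sources used here, and duplicate removal and the peak list limit which regions could be seen.

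The pairs, the gene lists and the tests were chosen with earlier results of these data known. Models for 2 groups used those 6 libraries only, and the interaction used all 12, in edgeR 4.0.16 in R 4.3.3 (TMM, glmQLFit, glmQLFTest), with Benjamini-Hochberg adjustment over all 17993 regions and calls at an adjusted p under 0.01. No filter was applied. An SE was taken as the absolute log2 fold change over the root of its F statistic. CPM were calculated with TMM factors of all 12 libraries. Some pairs that meet the rule for named pairs are not reported here. The p-values measure the spread between 3 libraries a group. Named pairs were the 6 called pairs with the largest change in each direction in tChIP-Seq between lines and the 3 in each other comparison whose libraries did not overlap between groups, the listed known pairs, the pairs of highest level, up to 6 pairs with synapse, endothelial or DNA repair genes, and the 4 in each direction with a second region. In simulated data for tChIP-Seq between lines on 17993 regions, 88% of 100 changes of 1 and 69% of 100 changes of 0.5 on the log2 scale were recovered. The lowest count of any pair in any library was 3. Between-start-site sequences were read from mm9. Those of Rom1/Eml3, S100a1/S100a13, Mcm4/Prkdc and Mrps12/Sars2 were chosen after values were seen, and those overlapping exons are not shown. RefSeq names came from GRCm38.p6, from which no coordinate was used. DESeq2 1.42.0, numpy 2.4.6, pandas 2.3.3, scipy 1.17.1 and matplotlib 3.10.9 were also used. Alternatives covered scaling, filters, thresholds, the test, the definition of a pair, leaving out each library and a replicate block.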

Additional observations from a re-analysis of the deposited data

Results flagged for a closer look

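The line effect of 165 pairs differed between tChIP-Seq and single ChIP-Seq by the interaction term, being above that of single ChIP-Seq in 95 and below it in 70. These are 15.6% of the pairs, beside 26.9% of all regions and 29.2% of single-gene promoters. With library totals the split was 55 above and 123 below. The 3 largest in each direction, with interaction terms on the log2 scale, were 2010002M12Rik/Ifit1 (-2.48), Abi3/Gngt2 (-2.43), Lsr/Fam187b (-2.02), Fam43b/AB041806 (1.39), Gm9954/3110047P20Rik (1.32) and Galntl6/BC030500 (1.2). With 3 libraries a group, single libraries that stand apart were not tested.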

How the results depend on the processing

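Counts of called pairs are given as higher and lower. Between lines in tChIP-Seq the counts of 102 and 104 became 64 and 65 with the DESeq2 Wald test, 66 and 66 at an adjusted p under 0.001, and 65 higher with library totals. Higher pairs numbered 51 among head-to-head pairs and 65 where both genes are protein-coding in RefSeq, which have fewer members. Between lines in single ChIP-Seq the counts of 1 and 16 became 2 and 5 with library totals, 0 and 0 with the DESeq2 Wald test, 7 and 49 at an adjusted p under 0.05, 0 and 5 at 0.001, and 3 lower without the 40% of regions with the lowest counts. Between assays in Rosa H2B-FLAG, 85 and 341 became 131 and 170 with library totals and 137 and 103 without those regions. In Camk2a H2B-FLAG, 102 and 363 became 199 lower with the DESeq2 Wald test and 209 lower without those regions, and 58 higher among head-to-head pairs. The interaction counts of 95 and 70 became 55 and 123 with library totals, 144 and 112 at an adjusted p under 0.05, 63 higher at 0.001, 57 higher without those regions, 50 among head-to-head pairs and 57 with both genes in RefSeq. The causes were not tested. Leaving out 1 library gave 71 to 90 higher and 81 to 98 lower in tChIP-Seq, and 0 to 1 and 6 to 12 in single ChIP-Seq.

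The median CPM per kb of pairs was 36.2 in Rosa H2B-FLAG single ChIP-Seq with library totals and 37.7 with both genes in RefSeq. In Rosa H2B-FLAG tChIP-Seq it was 33.5 with DESeq2 size factors, 34.9 with library totals, 33.6 with protein-coding transcripts only, 33.7 in head-to-head pairs and 33.8 with both genes in RefSeq. In Camk2a H2B-FLAG it was 36.3, 36.0, 36.6, 36.7 and 36.7 in the same order for single ChIP-Seq, and for tChIP-Seq 33.7 with size factors and 33.8 with protein-coding transcripts only. The ratio to single-gene promoters was 1.22, 1.16 and 1.21 in head-to-head pairs and with both genes in RefSeq (Rosa H2B-FLAG single ChIP-Seq and tChIP-Seq, Camk2a H2B-FLAG single ChIP-Seq), and 1.11 in Camk2a H2B-FLAG tChIP-Seq with protein-coding transcripts only. Weighted by width class it was 1.14, 1.1, 1.13 and 1.06.

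Over 85 results of 63 named pairs and 1189 combinations with a setting, 1124 stayed on their side of the threshold, 62 lost a call and 3 gained one. No called value changed sign, while values near 0 that were not called did, such as Hspd1/Hspe1, which went from 0.07 to -0.04 without Rosa H2B-FLAG tChIP-Seq replicate 3. Same-numbered libraries had correlations of -0.007 to 0.043. Replicates differed by little more than counting noise, with a chi-square per degree of freedom of 1.029 to 1.093. These correlations therefore cannot tell whether same-numbered libraries share a lysate, which the labels do not state. With a replicate block, 95 pairs were higher and 96 lower in tChIP-Seq between lines. The newer quasi-likelihood method and the RefSeq definition were added after seeing the data. In simulated data, changes of 0.5 on the log2 scale were recovered for 66% to 74% in comparisons of 2 groups and for 39% in the interaction.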
